A study of Homo sapiens with 10 samples.

Results

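Wild-type A549 cells were compared with wild-type NCI-H1944 cells (H1944 below), the starting state of each line before the study removed APE1. The comparison used 5 of the 10 libraries of the series, chosen by their wild-type (WT) label: A549 WT 1, WT 2 and WT 3, and H1944 WT 1 and WT 2. The other 5, from APE1 knockout cells, were not used. The study's title places APE1, a repair endonuclease encoded by APEX1, with urea cycle genes and G-quadruplexes in lung adenocarcinoma. A549 grew in DMEM and H1944 in RPMI1640 with added sodium pyruvate, both with 10% FBS, penicillin and streptomycin, and poly(A) RNA was sequenced as paired reads. Line and medium therefore cannot be told apart. Each group is 1 established line, and nothing says that its libraries came from separate cultures, so p-values cover the spread between libraries alone, and that spread may be technical.

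A549 and H1944 were both established from human lung adenocarcinoma, and both are known for mutations in STK11 and KEAP1. KEAP1 normally keeps the transcription factor NRF2 low, so lines that lose it carry high levels of detoxifying enzymes. Lung, liver and gut share an origin in the embryonic endoderm, and lung adenocarcinomas without the lung regulator NKX2-1 are known to make proteins of gut and liver. NKX2-1 had at most 3 counts in any of the 5 libraries here, SFTPB at most 5 and SLC34A2 at most 11. Other alveolar markers were present, ABCA3 in A549 and SFTPD, NAPSA and HOPX in H1944, with values given below. The epithelial keratin KRT8 had at least 5185 CPM in every library and KRT18 at least 3448.

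Total counts ran from 18314224 to 24358934 per library. Both tables listed the same 28281 symbols, of which 16857 had enough counts to be tested. Values are CPM, counts scaled to library size by TMM, given in the order A549 WT 1, WT 2, WT 3 and H1944 WT 1, WT 2. A fold change is A549 minus H1944 on the log2 scale, so a negative value is higher in H1944. The A549 libraries did not form 1 set: ribosomal RNA genes took 0.284% of the counts in WT 1 against 6.45% and 6.46% in WT 2 and WT 3, and 0.139% and 0.231% in H1944. The first principal component (82.1% of the variance) separated the lines and the second (15.3%) separated A549 WT 1 from the rest. WT 2 and WT 3 differed from each other by a chi-square of 1.90 per gene, the H1944 pair by 3.37, and WT 1 from WT 2 by 240. Ribosomal RNA genes (37 symbols), 643 symbols in certain regions and 43 single symbols were set aside. They were left out of the largest and least different genes and of the results by chromosome. Elsewhere they were only marked: 502 of them are among the 16857 genes tested and stay in the counts and shares below. With them removed before the fit, 3536 of 16341 genes were called higher in A549 and 3641 in H1944. The 43 had at least 8 times the CPM in WT 2 and WT 3 as in WT 1. The regions were runs of such genes with the genes between them, plus the MHC, and no list of alternate copies was used. The regions took 0.489% of the counts in WT 1, 2.79% and 2.81% in WT 2 and WT 3, and 0.465% and 0.457% in H1944. This choice was made from the A549 libraries themselves. Each difference was therefore fitted again with a term for WT 2 and WT 3, which leaves A549 WT 1 against H1944. It is called held where both fits gave an adjusted p under 0.05 and at least a 2-fold change the same way. In the fit with the term, A549 WT 1 stands alone. Its p-values take their spread from the pair of WT 2 and WT 3 and from the H1944 pair. They do not measure how WT 1 would vary. A call is said below to rest on a library where it was lost without that library.

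Markers of other cell types were low. The summed level of 10 fibroblast markers was 17.1, 9.89, 11, 17.2 and 15.7 CPM in library order, of 11 leukocyte markers 42.6, 45.3, 42.7, 31.1 and 32.2 CPM, of which the lysosomal gene CD68 gave 28.8, 44.2, 39.9, 26.1 and 27.8, and of 8 endothelial markers 0.819, 0.575, 0.636, 1.76 and 1.54 CPM. PDGFRA and PDGFRB had at most 9 counts in any library, CD3E and MS4A1 at most 0, and KDR none. Of the 8 of these markers that could be tested, THY1 and CD14 were called higher in A549, and LUM, FAP and PECAM1 in H1944. Over all genes tested these shares were 20% and 21.2%. The calls of CD14, FAP and PECAM1 rested on both H1944 libraries, that of CD14 also on A549 WT 3 and that of PECAM1 on A549 WT 2. APEX1, the gene the study later removed, measured 165, 263 and 246 CPM in A549 and 239 and 238 CPM in H1944 (log2 fold change -0.09, edgeR adjusted p 0.79), with WT 1 below and WT 2 and WT 3 above H1944.

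The lines differed across the transcriptome (the scatter of line means). At an adjusted p under 0.05, 3373 genes (20% of those tested) were higher in A549 and 3570 (21.2%) in H1944, 41.2% in all. With at least a 2-fold change these were 2439 (14.5%) and 2696 (16.0%). With A549 WT 1 against H1944 as well, 1859 (11.0%) held as higher in A549 and 2342 (13.9%) as higher in H1944. The libraries of the lines did not overlap for 11685 genes (69.3%), and the median log2 fold change of all genes was 0.01. These counts rest on the H1944 pair: without H1944 WT 1 the held counts were 661 and 965, and without H1944 WT 2 they were 609 and 918. For these held counts the library was left out of the main fit only. The fit with a term for WT 2 and WT 3 kept all 5 libraries. The counts at adjusted p under 0.05 also moved with each A549 library, to 6733 and 7118 without WT 1, 1916 and 2299 without WT 2, and 1932 and 2302 without WT 3.

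**Figure D1:**
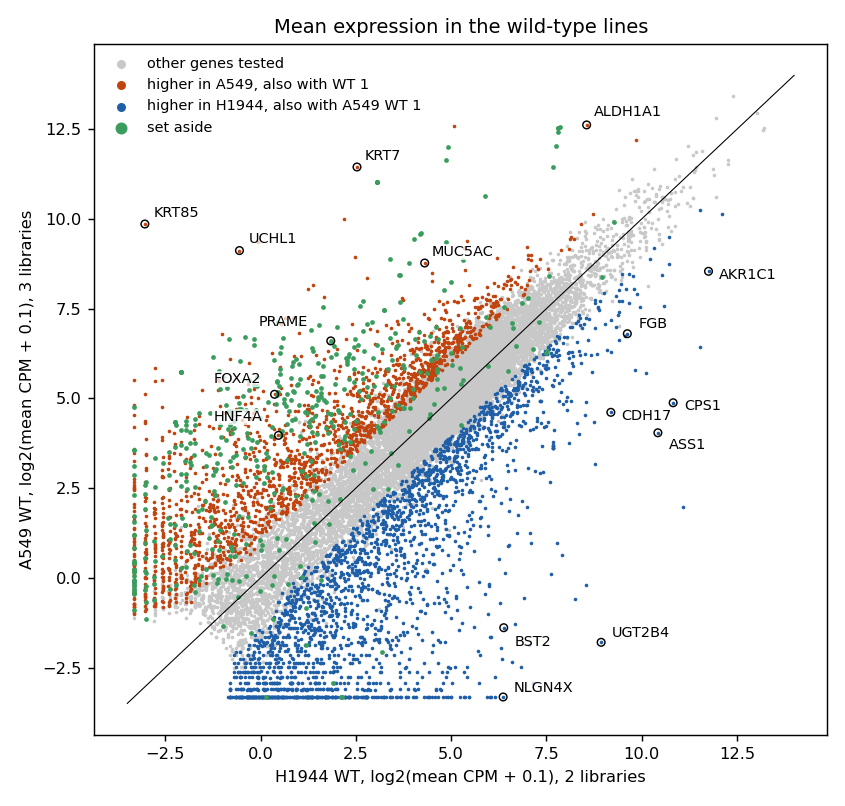
Mean log2(CPM + 0.1) of each gene tested in H1944 WT (x axis, 2 libraries) and A549 WT (y axis, 3 libraries), with the line of equality. Red and blue points held as higher in A549 (1859 genes) or H1944 (2342 genes) and green points were set aside, most of them above the line. CPS1, ASS1, UGT2B4 and CDH17 lie far towards H1944 and KRT7, KRT85 and UCHL1 far towards A549.

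The marker genes CPS1, ASS1, UGT2B4, CDH17 and FGB were each lower in all A549 libraries than in either H1944 library. The lines did not overlap for 69.3% of all genes tested. The roles of these markers lie in nitrogen disposal, glucuronidation, gut epithelium and blood clotting. Single genes do not make these traits of the line, and wider lists follow below. CPS1 (chromosome 2, 210477685 to 210679107, hg38), the mitochondrial enzyme that opens the urea cycle by making carbamoyl phosphate, measured 46.3, 19.1 and 22.4 CPM in A549 and 1815 and 1814 CPM in H1944. Every H1944 library was above every A549 library, 61.9-fold by the means (log2 fold change -5.95 ± 0.48 SE, adjusted p 0.00161 by edgeR). ASS1 (chromosome 9, 130444707 to 130501274), which joins citrulline and aspartate to argininosuccinate, measured 29.6, 9.71 and 9.82 CPM in A549 and 1378 and 1371 CPM in H1944 (log2 fold change -6.39 ± 0.65 SE, adjusted p 0.00263 by edgeR). Within A549 both genes were highest in WT 1, and with that library alone the log2 fold changes were still -5.29 and -5.54.

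UGT2B4 (chromosome 4, 69480165 to 69526014), a glucuronosyltransferase of bile acids and steroids in liver, was close to absent in A549, with 0.239, 0.182 and 0.141 CPM there and 479 and 500.4 CPM in H1944. Its log2 fold change of -11.31 (adjusted p 0.000334 by edgeR, SE 0.24) came from 12 counts over the 3 A549 libraries. CDH17 (chromosome 8, 94127162 to 94217278), the liver-intestine cadherin, measured 23.9, 25.7 and 23.4 CPM in A549 and 585 and 583 CPM in H1944, 24-fold higher in H1944 (log2 fold change -4.58 ± 0.14 SE, adjusted p 0.000455 by edgeR). Its A549 libraries lay within 3 CPM of each other, so the difference did not depend on which one was used (-4.61 with WT 1). FGB (chromosome 4, 154562980 to 154572807), the beta chain of fibrinogen, was clearly present in both lines, at 152, 91.4 and 90.9 CPM in A549 and 769.7 and 807 CPM in H1944 (log2 fold change -2.82 ± 0.29 SE, adjusted p 0.00263 by edgeR).

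PRAME (chromosome 22, 22547701 to 22559265), a cancer-testis antigen of melanoma and other tumours, did not mark either line. It measured 2.06, 147 and 141 CPM in A549 and 4.11 and 2.85 CPM in H1944: WT 2 and WT 3 were far above the other 3 libraries, while WT 1 was below both H1944 libraries. The log2 fold change was 4.80 over all A549 libraries (edgeR adjusted p 0.0883, DESeq2 adjusted p 0.00812), -0.76 with WT 1 and 5.37 with WT 2 and WT 3. PRAME lies in one of the regions set aside. Outside the MHC such regions were chosen by this split, so its place there is no separate evidence. TUBB, a tubulin gene in another set-aside region, split in the same way at 49.3, 2371 and 2357 CPM in A549 and 57.3 and 60.1 CPM in H1944. So 5 of the 6 marker genes held (against 24.9% of all genes tested), all as higher in H1944, and 1 changed direction with the A549 library. The markers were chosen with earlier results of these data known.

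**Figure D2:**
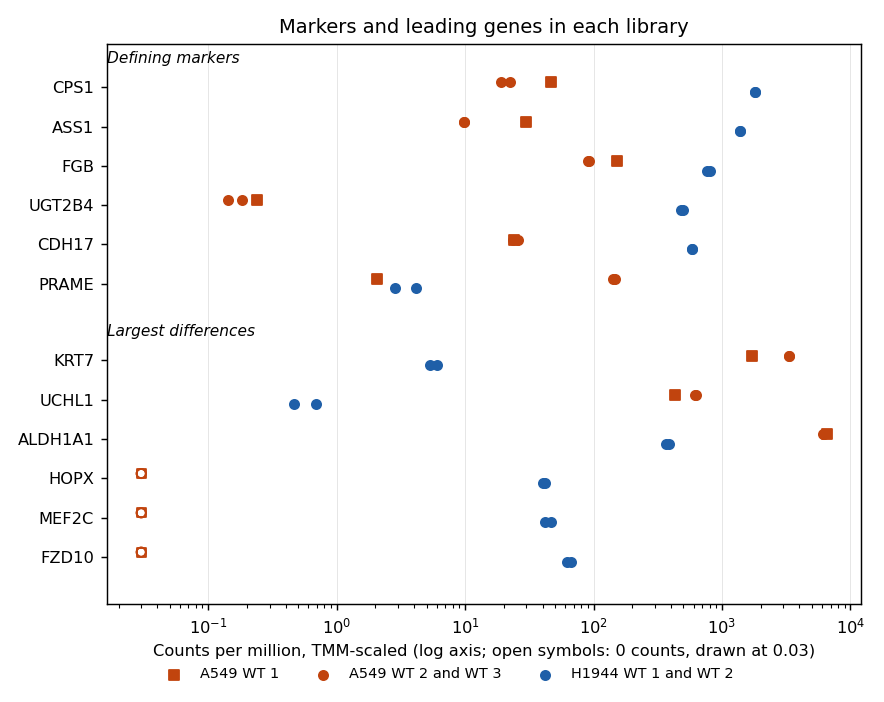
CPM of the 6 marker genes and 6 genes with large differences in each library on a log axis, with A549 WT 1 as squares, A549 WT 2 and WT 3 as red circles and H1944 as blue circles. Open symbols at 0.03 stand for 0 counts. Lines separate for each gene except PRAME, where WT 1 lies with H1944 and WT 2 and WT 3 lie at 147 and 141 CPM.

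Of the 7 urea cycle genes tested, 2 were called, against 41.2% of all genes tested. They were CPS1 and ASS1, the first enzyme and the enzyme that takes up citrulline, both higher in H1944. ASL, which cleaves argininosuccinate, measured 13.6, 29.9 and 26.3 CPM in A549 and 33.6 and 28.1 CPM in H1944 and did not pass (edgeR adjusted p 0.396). ARG2, the mitochondrial arginase, measured 28.7, 49 and 52.5 CPM in A549 and 27.9 and 32 CPM in H1944 (edgeR adjusted p 0.204), and passed as higher in A549 without A549 WT 1 (edgeR adjusted p 1.2e-09). The ornithine carrier SLC25A15, the aspartate-glutamate carrier SLC25A13 and NAGS, whose product activates CPS1, did not pass either, with log2 fold changes of -0.06, 0.20 and -0.28. With WT 1 alone ASL, NAGS and SLC25A13 did pass, at -1.18, -1.03 and 0.45. OTC, which makes citrulline from carbamoyl phosphate, had at most 1 count in any library, ARG1 at most 7 and SLC25A2 at most 1, and none of them could be tested. The study itself named this cycle, so the list is not independent evidence of a direction. Both calls were kept with either H1944 library left out.

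Pyrimidine synthesis, which also starts from carbamoyl phosphate and aspartate, differed by smaller amounts. CAD, the enzyme of the first steps, measured 163, 191 and 185 CPM in A549 and 86.5 and 79.2 CPM in H1944, 2.17-fold higher in A549 (log2 fold change 1.12 ± 0.15 SE, adjusted p 0.00502 by edgeR). DHODH, UMPS and CTPS1 were also called higher in A549, at 2.73-fold, 1.66-fold and 1.68-fold, and CTPS2 and CMPK1 higher in H1944, at 1.45-fold and 1.77-fold. TYMS, which makes thymidylate, and UCK2, a uridine-cytidine kinase, were above 100 CPM in every library and did not pass (edgeR adjusted p 0.0794 and 0.142). None of the 9 tested held at 2-fold with A549 WT 1, against 24.9% of all genes tested. All 6 calls (against 41.2% of all genes tested) rested on both H1944 libraries. Those of UMPS, CTPS1, CTPS2 and CMPK1 rested on A549 WT 2 and WT 3 too, and that of DHODH on WT 3.

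Fibrinogen was higher in H1944 in all its chains. The 3 chains are encoded side by side on chromosome 4 and are secreted as 1 hexamer by hepatocytes, and by lung epithelium in inflammation. FGA (chromosome 4, 154583126 to 154590742) measured 113, 62 and 59.6 CPM in A549 and 569 and 604 CPM in H1944 (log2 fold change -2.91 ± 0.33 SE, adjusted p 0.00363 by edgeR), and FGG (chromosome 4, 154604136 to 154612656) 73, 47.4 and 44.8 CPM in A549 and 876 and 925 CPM in H1944 (log2 fold change -4.03 ± 0.27 SE, adjusted p 0.00111 by edgeR). FGG stood 16.4-fold apart, against 7.5-fold for FGA and 7.07-fold for FGB. For all 3, WT 1 was the highest of the A549 libraries and still far below either H1944 library. FGL1, a fibrinogen-related liver protein, measured 30.7, 30.9 and 31.3 CPM in A549 and 90.2 and 94.4 CPM in H1944 (2.98-fold).

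The chains moved together, so their start regions are shown: the 250 bases before each RefSeq start site in GRCh38.p14, read 5′ to 3′ on the gene's strand. Capitals mark GTTAAT, a short motif known from promoters of liver genes, or its complement ATTAAC on the other strand.
FGA (chromosome 4, 154590743 to 154590992, minus strand): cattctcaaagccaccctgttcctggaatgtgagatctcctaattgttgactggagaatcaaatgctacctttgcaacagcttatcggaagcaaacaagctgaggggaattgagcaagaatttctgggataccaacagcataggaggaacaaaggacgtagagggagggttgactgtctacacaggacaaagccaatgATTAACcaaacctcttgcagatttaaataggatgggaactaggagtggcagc
FGB (chromosome 4, 154562730 to 154562979, plus strand): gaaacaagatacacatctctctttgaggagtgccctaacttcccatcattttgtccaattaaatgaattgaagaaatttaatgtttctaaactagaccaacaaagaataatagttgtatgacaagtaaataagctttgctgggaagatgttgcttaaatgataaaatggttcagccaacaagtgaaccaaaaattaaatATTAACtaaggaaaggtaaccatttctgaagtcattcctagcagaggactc
FGG (chromosome 4, 154612657 to 154612906, minus strand): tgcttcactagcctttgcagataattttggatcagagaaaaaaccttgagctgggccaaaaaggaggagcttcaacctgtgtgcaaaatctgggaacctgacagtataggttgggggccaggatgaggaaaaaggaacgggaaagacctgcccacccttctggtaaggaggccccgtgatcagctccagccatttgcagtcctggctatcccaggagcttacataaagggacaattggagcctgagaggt
The motif stands 52 bases before the start of FGA and 51 before that of FGB, on the opposite strand in both, and these letters are not in the window of FGG. Searched on both strands, it is in 6.23% of 35116 start sites of all genes and in 4.27% of 17741 start sites of genes tested. It is in 7.49% of 2336 start sites of genes that held as higher in H1944 and in 3.79% of 1953 of genes that held as higher in A549. The other motif searched, TATAAA, leaned the same way. It is in 6.48% of start sites of genes tested, 10.2% of those held for H1944 and 6.35% of those held for A549. GTTAAT is not in the windows of CPS1, ASS1, PRAME or UGT2B7, and it is in that of UGT2A1. These shares are descriptions, with several start sites counted for some genes.

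Over the wider list of plasma proteins made by the liver, 23 of 35 could be tested. Of these, 10 were called higher in H1944 and 2 in A549 (against 21.2% and 20% of all genes tested). Each of these calls held. The list's median log2 fold change was -1.56. Coagulation factor V (F5) measured 0.383, 0.456 and 0.705 CPM in A549 and 78.6 and 76.9 CPM in H1944, 149-fold higher in H1944 (log2 fold change -7.22 ± 0.28 SE, adjusted p 0.000495 by edgeR). Complement factor I (CFI), a protease that cuts C3b, measured 1.44, 0.957 and 0.564 CPM in A549 and 192 and 204 CPM in H1944 (log2 fold change -7.64 ± 0.40 SE, adjusted p 0.00081 by edgeR). Prothrombin (F2), AMBP and the retinol carrier RBP4 were higher in H1944 at lower levels, by 6.32-fold, 2.95-fold and 3.43-fold.

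C3, the central complement protein, measured 302, 43 and 46.4 CPM in A549 and 678 and 677 CPM in H1944 and did not pass (edgeR adjusted p 0.1). Its A549 libraries differed 6.76-fold between WT 1 and the mean of WT 2 and WT 3, though all lay below H1944. APOH, a phospholipid-binding plasma protein, and CFB of the alternative complement pathway were the 2 called higher in A549, APOH at 13.6, 10.5 and 8.13 CPM in A549 and 0.52 and 0.886 CPM in H1944 (log2 fold change 3.93 ± 0.40 SE, adjusted p 0.00263 by edgeR) and CFB by 4.25-fold at under 3 CPM. CFB lies in the MHC, which was set aside. Albumin (ALB) had at most 14 counts in any library, APOB at most 9 and TTR at most 7, so the lines share only part of the liver's secreted set. With H1944 WT 1 left out, 8 and 1 calls for H1944 and A549 were left, and with H1944 WT 2 left out 8 and 1, those of AMBP and CFB being lost in both (edgeR adjusted p up to 0.0769 and 0.115).

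Several regulators known to drive these genes in liver ran the other way. HNF4A, a nuclear receptor that sets hepatocyte identity, measured 16.7, 14.4 and 15.6 CPM in A549 and 1.21 and 1.35 CPM in H1944, 12.1-fold higher in A549 (log2 fold change 3.60 ± 0.20 SE, adjusted p 0.000829 by edgeR). The pioneer factor FOXA2 measured 42, 33 and 28.6 CPM in A549 and 0.65 and 1.73 CPM in H1944 (log2 fold change 4.86 ± 0.51 SE, adjusted p 0.00284 by edgeR) and FOXA3 5.56, 7.02 and 8.32 CPM in A549 and 0.476 and 0.886 CPM in H1944 (10.2-fold). All A549 libraries were above all H1944 libraries for each of the 3, where 69.3% of all genes tested had no overlap between the lines. GATA4, an endoderm factor, stood 19.5-fold higher in A549 (5.12, 3.24 and 5.12 CPM in A549 and 0.173 and 0.28 CPM in H1944), GATA6 3.27-fold and the nuclear receptor NR5A2 6.42-fold (63.3, 36.1 and 38 CPM in A549 and 6.28 and 7.98 CPM in H1944).

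On the H1944 side were HNF4G, the intestinal relative of HNF4A, at 9.24, 4.42 and 5.03 CPM in A549 and 46.5 and 47.6 CPM in H1944 (log2 fold change -2.92 ± 0.36 SE, adjusted p 0.00421 by edgeR), the bile acid receptor NR1H4 at 1.29, 3.37 and 3.53 CPM in A549 and 20.1 and 22.1 CPM in H1944 (7.7-fold), CEBPA, which activates many liver promoters, at 13.5, 15.5 and 13.1 CPM in A549 and 35.6 and 35.6 CPM in H1944 (2.54-fold), and FOXA1 at 1.57-fold, which did not hold. Of 14 factors tested, 6 were called higher in A549 and 4 in H1944 (against 20% and 21.2% of all genes tested), with a median log2 fold change of 1.35 against -1.56 for the plasma proteins. These medians were 0.68 and -1.49 with A549 WT 1, and 1.55 and -1.57 with WT 2 and WT 3. Leaving out H1944 WT 1 gave calls for A549 and H1944 of 5 and 2, and leaving out H1944 WT 2 gave 4 and 2; NR5A2, NR1H4 and FOXA1 were lost in both (adjusted p up to 0.0604, 0.0626 and 0.226). That of GATA6 rested on H1944 WT 2, and that of FOXA1 also on A549 WT 2 and WT 3.

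**Figure D3:**
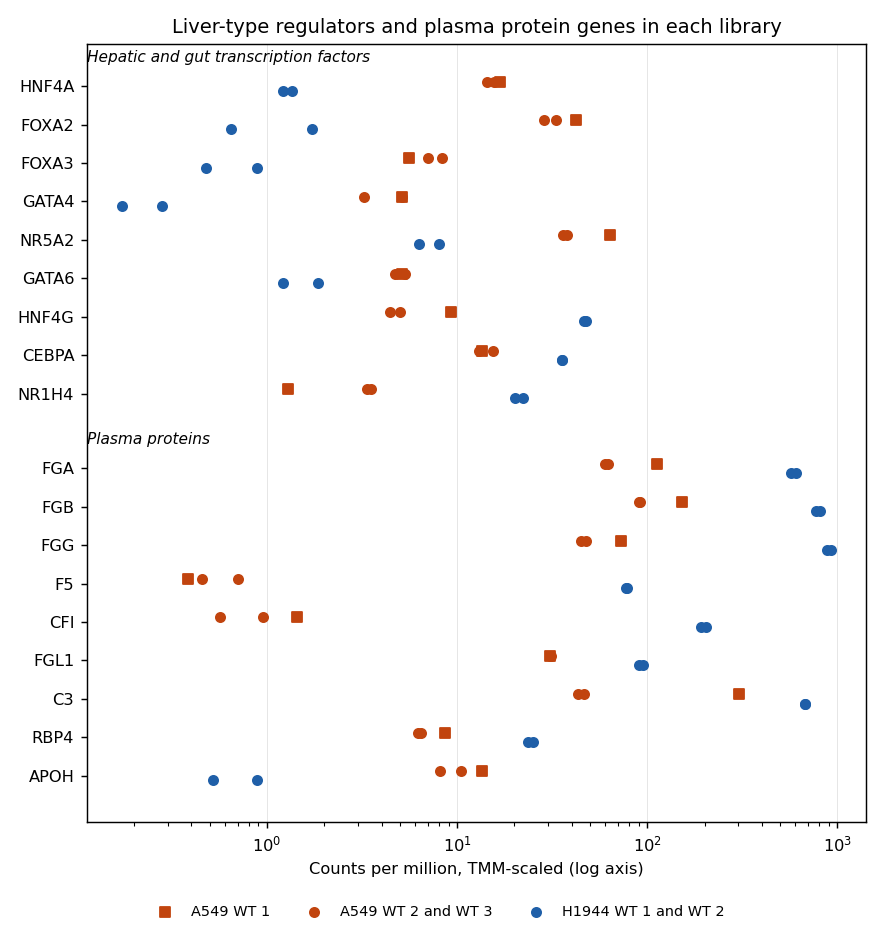
CPM of 9 hepatic and gut transcription factors (top) and 9 plasma protein genes (bottom) in each library on a log axis, with A549 WT 1 as squares, A549 WT 2 and WT 3 as red circles and H1944 as blue circles. HNF4A, FOXA2, FOXA3, GATA4 and NR5A2 are higher in A549, while fibrinogen, F5 and CFI are higher in H1944.

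Glucuronidation, which couples a sugar acid to bilirubin, steroids and drugs, was higher in H1944 almost throughout. Of 15 tested genes of the pathway 14 were called higher in H1944 and 0 in A549, against 21.2% and 20% of all genes, and 13 held. UGT1A1, which conjugates bilirubin, measured 12.1, 13 and 13.2 CPM in A549 and 199 and 209 CPM in H1944, 16-fold higher in H1944 (edgeR adjusted p 0.000455). UGT1A3, UGT1A4, UGT1A6, UGT1A8, UGT1A9 and UGT1A10 share exons with it. Their counts were nearly the same as its own, except for UGT1A6, which was higher in H1944 still, at 12.7, 13.7 and 13.9 CPM in A549 and 268 and 278 CPM in H1944. How reads were divided between the 7 is uncertain, and they are close to 1 measurement. UGT2B7 measured 0.287, 0.866 and 0.987 CPM in A549 and 16.6 and 18.1 CPM in H1944 (24.1-fold). UGT2A1, which shares reads with UGT2A2, had 0 counts in A549 and 21 and 21.4 CPM in H1944, at least 452-fold higher against 3 counts over the group. UGDH, which makes the sugar donor for all of them, measured 630.1, 429 and 423 CPM in A549 and 1002 and 995 CPM in H1944, a 2.02-fold difference that did not hold with WT 1 (-0.66). With H1944 WT 1 or WT 2 left out, 10 and 11 of the 14 calls were left, and that of UGDH was lost in both (adjusted p up to 0.147) and rested on A549 WT 2 and WT 3 too.

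Cytochrome P450 genes split by member. Of 17 tested, 9 were called higher in H1944 and 3 in A549 (against 21.2% and 20% of all genes tested). CYP4F3 and CYP4F11, fatty acid hydroxylases, were 3.06-fold and 2.76-fold higher in H1944, CYP4F3 at 79.3, 68.1 and 69 CPM in A549 and 218 and 223 CPM in H1944 (log2 fold change -1.61 ± 0.14 SE, adjusted p 0.00173 by edgeR). CYP51A1, the demethylase of cholesterol synthesis, and the ocular lipid hydroxylase CYP4V2 were 3.24-fold and 4.38-fold higher in H1944. CYP1B1 and CYP2S1, which the aryl hydrocarbon receptor can induce, were higher in A549, CYP1B1 at 236, 97 and 98.2 CPM in A549 and 12.6 and 11.1 CPM in H1944 (log2 fold change 3.60 ± 0.54 SE, adjusted p 0.00714 by edgeR) and CYP2S1 at 40, 54.6 and 56.9 CPM in A549 and 10 and 8.44 CPM in H1944 (log2 fold change 2.45 ± 0.23 SE, adjusted p 0.00234 by edgeR). Leaving out H1944 WT 1 or WT 2 left 1 call for A549 and 4 for H1944, and that of CYP1B1 was lost (adjusted p up to 0.0781). CYP24A1, which breaks down vitamin D, was abundant in both, at 1236, 569 and 575 CPM in A549 and 799 and 798 CPM in H1944, and its direction depended on the A549 library.

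Genes driven by NRF2 were abundant in both lines, with more of them higher in H1944. NQO1, a quinone reductase often used to read NRF2 activity, measured 1516, 1652 and 1641 CPM in A549 and 1309 and 1367 CPM in H1944 and did not pass (edgeR adjusted p 0.246). AKR1B10 measured 3036, 3753 and 3816 CPM in A549 and 2525 and 2651 CPM in H1944 and AKR1C2 2633, 2634 and 2672 CPM in A549 and 2638 and 2775 CPM in H1944, and neither passed (edgeR adjusted p 0.128 and 0.889). AKR1C1 stood out at 365, 379 and 373 CPM in A549 and 3315 and 3589.9 CPM in H1944, 9.27-fold higher in H1944 (log2 fold change -3.21 ± 0.17 SE, adjusted p 0.000765 by edgeR); its near-identical relatives AKR1C2 and AKR1C3 can share reads with it, so the split between them is uncertain. SRXN1, which repairs peroxiredoxins, measured 397, 440.2 and 446 CPM in A549 and 1664 and 1683 CPM in H1944 (log2 fold change -1.97 ± 0.16 SE, adjusted p 0.00148 by edgeR), and GCLM, a subunit of the enzyme that starts glutathione synthesis, 233, 143 and 135 CPM in A549 and 672 and 683 CPM in H1944 (log2 fold change -1.99 ± 0.28 SE, adjusted p 0.00621 by edgeR). NFE2L2, which encodes NRF2, measured 75.1, 63.8 and 61.8 CPM in A549 and 219.9 and 224 CPM in H1944, 3.32-fold higher in H1944 (log2 fold change -1.73 ± 0.15 SE, adjusted p 0.00171 by edgeR), and KEAP1 measured 76.6, 129 and 129 CPM in A549 and 107 and 103 CPM in H1944 and did not pass (edgeR adjusted p 0.799).

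Of 31 NRF2 targets tested, 14 were called higher in H1944 and 1 in A549 (against 21.2% and 20% of all genes tested). Of these, 6 held, all as higher in H1944, as did 13.9% of all genes tested. The median log2 fold change was -0.73. The thioredoxin reductase TXNRD1 measured 1990.3, 1368 and 1358 CPM in A549 and 3861 and 4011 CPM in H1944 (2.5-fold), and glutathione reductase (GSR) 501, 355 and 356 CPM in A549 and 881 and 874 CPM in H1944 (2.17-fold); neither held. PIR, an iron-binding redox sensor, and OSGIN1 held as higher in H1944, by 2.02-fold and 2.17-fold. The ferritin chains FTH1 and FTL, which store iron, were 1.66-fold (called) and 1.59-fold (not called, edgeR adjusted p 0.0596) higher in H1944. GCLC, the partner of GCLM, measured 293, 174 and 178 CPM in A549 and 166 and 169 CPM in H1944 and did not pass (edgeR adjusted p 0.342), and neither did the pentose phosphate enzymes PGD (0.17), TKT (0.43) and TALDO1 (-0.15), where the numbers are log2 fold changes. Of the 14 calls for H1944, 3 were left without H1944 WT 1 or WT 2. GCLM, TXNRD1, GSR, PIR, OSGIN1 and FTH1 rested on both H1944 libraries (adjusted p up to 0.059, 0.113, 0.11, 0.0858, 0.174 and 0.223), and GSR, OSGIN1 and FTH1 on A549 WT 2 and WT 3 too.

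Aldehyde dehydrogenases leaned to A549. ALDH1A1, a retinal dehydrogenase and stem cell marker, measured 6568, 6201 and 6109.5 CPM in A549 and 367 and 385 CPM in H1944, 16.7-fold higher in A549 (log2 fold change 4.06 ± 0.21 SE, adjusted p 0.000771 by edgeR). ALDH3A1, found in cornea and airway, measured 3519.5, 5252 and 5276 CPM in A549 and 933 and 914 CPM in H1944 (log2 fold change 2.34 ± 0.28 SE, adjusted p 0.00385 by edgeR), a call lost with either H1944 library left out (adjusted p up to 0.0684). ALDH1A3 stood 29.6-fold apart at 21.8, 20.1 and 22.5 CPM in A549 and 0.693 and 0.746 CPM in H1944. ALDH2, the mitochondrial enzyme that clears acetaldehyde, went the other way at 186, 265 and 265 CPM in A549 and 938 and 935 CPM in H1944 (log2 fold change -1.97 ± 0.21 SE, adjusted p 0.00311 by edgeR). Of 15 tested, 8 were called higher in A549 and 3 in H1944 (against 20% and 21.2% of all genes tested). Of these calls 3 and 2 held (against 11.0% and 13.9%). Those 3 in A549 were ALDH1A1, ALDH1A3 and ALDH3A1, and those 2 in H1944 were ALDH2 and ALDH1L1, the latter at most 2.04 CPM. ALDH3B1 and ALDH9A1 were called at 1.79-fold towards A549 and 1.54-fold towards H1944. Leaving out H1944 WT 1 or WT 2 left 2 calls for A549 and 1 for H1944. ALDH1L1, ALDH3B1 and ALDH9A1 rested on both H1944 libraries, and ALDH3B1 and ALDH9A1 on A549 WT 2 and WT 3 too.

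The epithelial character of the lines differed gene by gene. E-cadherin (CDH1), which joins epithelial cells, measured 62.9, 34.4 and 40.2 CPM in A549 and 207 and 206 CPM in H1944, 4.5-fold higher in H1944 (log2 fold change -2.17 ± 0.29 SE, adjusted p 0.0052 by edgeR). The tight junction gene CLDN4 measured 2.35, 3.97 and 4.28 CPM in A549 and 96.8 and 86.9 CPM in H1944 (log2 fold change -4.70 ± 0.30 SE, adjusted p 0.00101 by edgeR), the protease inhibitor SPINT1 1.96, 2.05 and 2.35 CPM in A549 and 44.7 and 44.1 CPM in H1944 (log2 fold change -4.38 ± 0.16 SE, adjusted p 0.000455 by edgeR), and EPCAM 14.9, 29.8 and 25.3 CPM in A549 and 69.9 and 67.4 CPM in H1944 (2.94-fold). KRT7 and KRT19, keratins of simple epithelia, were higher in A549 instead. KRT7 measured 1719, 3335 and 3322 CPM in A549 and 6.02 and 5.32 CPM in H1944 (log2 fold change 8.94 ± 0.53 SE, adjusted p 0.000863 by edgeR), and KRT19 measured 36.4, 185 and 181 CPM in A549 and 1.34 and 1.35 CPM in H1944 (log2 fold change 6.63 ± 0.98 SE, adjusted p 0.00694 by edgeR). The main keratin pair of both lines, KRT8 at 5185, 13969 and 13820.2 CPM in A549 and 5486 and 5361 CPM in H1944 and KRT18 at 3448, 8948 and 8998 CPM in A549 and 3954 and 3935 CPM in H1944, did not pass (edgeR adjusted p 0.151 and 0.2): WT 1 lay below H1944 and WT 2 and WT 3 above. ELF3, an epithelial transcription factor, and SPINT2 were above 200 CPM in every library and did not pass (edgeR adjusted p 0.077 and 0.162). Of 16 tested genes 7 were called higher in H1944 and 3 in A549 (against 21.2% and 20% of all genes tested). These became 3 and 1 without H1944 WT 1 and 2 and 1 without H1944 WT 2, with EPCAM and KRT19 lost in both (adjusted p up to 0.105 and 0.0753) and CDH1 without H1944 WT 2 (0.0508).

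Mesenchymal genes leaned to A549. Of 18 tested, 12 (against 20% of all genes tested) were called higher in A549 and 1 in H1944, with a median of 1.40. Fibronectin (FN1) measured 659.8, 159 and 157 CPM in A549 and 7.02 and 6.72 CPM in H1944 (log2 fold change 5.56 ± 0.95 SE, adjusted p 0.0101 by edgeR), with A549 WT 1 well above WT 2 and WT 3. N-cadherin (CDH2) measured 42.9, 23.3 and 19.7 CPM in A549 and 1.04 and 1.31 CPM in H1944 (log2 fold change 4.61 ± 0.49 SE, adjusted p 0.0029 by edgeR) and the transcription factor TWIST1 8.19, 6.56 and 8.04 CPM in A549 and 0.65 and 0.653 CPM in H1944 (log2 fold change 3.53 ± 0.24 SE, adjusted p 0.00102 by edgeR). Vimentin (VIM) measured 736, 1039 and 1033 CPM in A549 and 339 and 337 CPM in H1944 (2.77-fold), and the receptor kinase AXL 88.7, 162 and 162 CPM in A549 and 43.1 and 40.6 CPM in H1944 (3.29-fold). The matricellular genes CCN1 and CCN2, which report TGF-beta and YAP activity, were 3.35-fold and 7.05-fold higher in A549, TGFBI 2.3-fold and the tropomyosin TPM2 4.36-fold, while CALD1 measured 130.2, 72 and 73.6 CPM in A549 and 129.6 and 136 CPM in H1944 and did not pass (edgeR adjusted p 0.213). TWIST1 is known as a repressor of E-cadherin, and others of that kind gave no call for A549 over all its libraries: ZEB1 measured 22, 10.1 and 10.2 CPM in A549 and 14.1 and 14 CPM in H1944 (edgeR adjusted p 0.994; higher in A549 with WT 1 alone, at 0.65, and lower without WT 1, at -0.47, where it passed both times), SNAI1 5.12, 2.96 and 3.01 CPM in A549 and 4.55 and 4.66 CPM in H1944 (0.451), and SNAI2, under 2 CPM, was the member higher in H1944. CDH2 and TWIST1 were the 2 members still called without H1944 WT 1 or WT 2, and FN1, VIM and AXL were lost (adjusted p up to 0.096, 0.098 and 0.117).

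Among markers of alveoli and airways, H1944 had SFTPD, an innate defence protein of surfactant, at 0.0479, 0.182 and 0.376 CPM in A549 and 25.9 and 23.9 CPM in H1944 (log2 fold change -6.90 ± 0.56 SE, adjusted p 0.00168 by edgeR), and the alveolar protease NAPSA at 0.814, 1.5 and 0.94 CPM in A549 and 10.4 and 7.46 CPM in H1944 (8.15-fold). A549 had ABCA3, the lipid pump of lamellar bodies, at 42.8, 49.5 and 49.2 CPM in A549 and 2.51 and 2.05 CPM in H1944 (log2 fold change 4.36 ± 0.20 SE, adjusted p 0.00062 by edgeR). The gel-forming mucin MUC5AC measured 397, 456 and 458 CPM in A549 and 21.2 and 18.1 CPM in H1944, 22.2-fold higher in A549 (log2 fold change 4.47 ± 0.19 SE, adjusted p 0.000519 by edgeR), while the membrane mucins MUC1 and MUC16, and HOPX below, were higher in H1944 (MUC1 8.88-fold and MUC16 10.7-fold). MUC5B measured 186, 114 and 118 CPM in A549 and 176 and 169 CPM in H1944 and overlapped between the lines (edgeR adjusted p 0.375). Of 14 tested, 2 were called for A549 and 5 for H1944 (against 20% and 21.2% of all genes tested). Each of these calls held and was kept with either H1944 library left out.

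Gut markers beside CDH17 were mixed as well. TSPAN8, a tetraspanin of gut epithelium, measured 0.0958, 0.501 and 0.47 CPM in A549 and 16.6 and 17.4 CPM in H1944 (log2 fold change -5.55 ± 0.54 SE, adjusted p 0.00245 by edgeR), and the brush border peptidase ANPEP 7.38, 8.25 and 6.77 CPM in A549 and 35.9 and 36.1 CPM in H1944 (4.82-fold); both were higher in H1944, as was VIL1 by 2.1-fold. AGR2, a disulfide isomerase of mucus-secreting cells, measured 223, 335 and 328 CPM in A549 and 67.1 and 71.8 CPM in H1944, 4.25-fold higher in A549, and it rested, like VIL1 and ANXA13, on both H1944 libraries (adjusted p up to 0.0574, 0.0759 and 0.0633). CEACAM6 measured 31.9, 179 and 174 CPM in A549 and 135 and 135 CPM in H1944, with WT 1 far below H1944 and WT 2 and WT 3 above it. ANXA13, an annexin of villus cells, was 6.03-fold higher in A549. Of 15 tested, 5 were called higher in H1944 and 3 in A549 (against 21.2% and 20% of all genes tested), and 3 and 0 of these were left without H1944 WT 1 or WT 2.

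The 12 largest fitted differences held as higher in A549, among genes of at least 20 CPM there, included the keratins KRT7, described above, and KRT85. KRT85, a keratin of hair cortex, measured 417, 1179 and 1188 CPM in A549 and had 1 count in all of H1944. The ratio of pooled counts was 41578, with a 95% counting interval of 7462 to 1642290.0. Its neighbour KRT81, not among the 12, measured 2589.7, 7924 and 8112 CPM in A549 and 34 and 33.4 CPM in H1944 (log2 fold change 7.53 ± 0.76 SE, adjusted p 0.00261 by edgeR); KRT81 and KRT86 are close copies that may share reads. UCHL1, a neuronal ubiquitin hydrolase, measured 427, 614 and 627 CPM in A549 and 0.693 and 0.466 CPM in H1944, 946-fold (log2 fold change 9.89 ± 0.40 SE, adjusted p 0.000514 by edgeR). The neurotrophin receptor NTRK3 measured 53.3, 26.4 and 25.3 CPM in A549 and 0.0433 and 0 CPM in H1944, the neuronal filament INA 49.5, 43.8 and 42.5 CPM in A549 and 0.0866 and 0.0466 CPM in H1944, the pentraxin NPTX1 42.1, 18.7 and 19.3 CPM in A549 and 0.0866 and 0.0466 CPM in H1944 and the activin subunit INHBB 95.9, 116 and 120.1 CPM in A549 and 0.693 and 0.0933 CPM in H1944. NTRK3 and NPTX1 were highest in WT 1, and for each of these genes every A549 library was above every H1944 library. They were chosen for large held differences, and the lines did not overlap for 69.3% of all genes tested.

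SP9, a developmental transcription factor, had 0 counts in H1944 and 32.7, 25.3 and 26.4 CPM in A549, at least 417-fold higher against 3 counts over the group. BTBD6, an adaptor of a ubiquitin ligase, also had 0 counts in H1944, at least 672-fold, and the sialyltransferase ST6GAL2 at least 342-fold. FBN2, an extracellular fibrillin, measured 88, 22.6 and 22.4 CPM in A549 and 0 and 0.0933 CPM in H1944 and the muscle sarcoglycan SGCD 25.7, 19.6 and 16.5 CPM in A549 and 0.0433 and 0 CPM in H1944. FBN2 was 3.92 times as high in WT 1 as in WT 2 and WT 3, and its call was lost with either H1944 library left out (adjusted p up to 0.062).

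Each of the 12 genes with the largest fitted differences held as higher in H1944, chosen in the same way, had 0 counts in all 3 A549 libraries. For such genes the fitted value is no measured size: UGT2B4, with 12 counts in A549 and a log2 fold change of -11.31, lay beyond each bound given for them here and is not among the 12. NLGN4X, a synaptic adhesion protein, measured 80.4 and 84.1 CPM in H1944 WT 1 and WT 2, at least 1756-fold higher against 3 counts over the A549 group. TMPRSS15, the enteropeptidase of duodenal brush border, measured 68.9 and 72.4 CPM (at least 1508-fold), and the WNT receptor FZD10 62.6 and 67 CPM (at least 1383-fold). FZD10-AS1, the antisense transcript beside it, had 40.4 and 40.2 CPM; strand was not given in the sources used here, so the pair may share reads. MEF2C, a transcription factor of muscle and lymphocytes, measured 42 and 46.3 CPM, and HOPX, a homeodomain protein of alveolar type 1 cells, 42 and 40.6 CPM (at least 942-fold and 883-fold).

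The list went on with LINC01287 (64.6 and 67.5 CPM), the pseudogene CYP2B7P (63.6 and 59.3), the membrane protein gene MCTP2 (42.8 and 45.4), the arginine methyltransferase PRMT6 (38.2 and 36.8), the zinc finger gene ZNF83 (31.4 and 32.1) and VCX, a testis gene on the X chromosome (31.8 and 31.3). Bounds for these 6 ran from 675-fold to 1410.1-fold.

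Cancer-testis antigens, made in germ cells and re-expressed in tumours, were higher in H1944. Of 40 listed genes 21 could be tested. Of these, 17 were called higher in H1944 and 0 in A549 (against 21.2% and 20% of all genes tested), and all 17 held. The median log2 fold change was -6.39, or -5.08 with the 7 genes at 0 in A549 set at their bound. The median was -7.76 without A549 WT 3 and -7.76 with A549 WT 1. MAGEA12 measured 0.192, 0.0456 and 0.047 CPM in A549 and 93.1 and 100.2 CPM in H1944 (log2 fold change -9.92 ± 0.44 SE, adjusted p 0.000604 by edgeR) and MAGEA3 0.814, 0.729 and 0.705 CPM in A549 and 61.4 and 65.2 CPM in H1944 (log2 fold change -6.39 ± 0.17 SE, adjusted p 0.000412 by edgeR). MAGEB2 had 0 counts in A549 and 26.7 and 28.3 CPM in H1944, at least 586-fold higher against 3 counts over the group. CTAG2 had 0 counts and 23.8 and 23.6 CPM, at least 507-fold higher. MAGEC2 had 1 count over A549 and 6.32 and 7.51 CPM in H1944, a ratio of pooled counts of 442 with a 95% counting interval of 78.7 to 17510.1.

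MAGEA6, nearly identical to MAGEA3, measured 5.12, 4.42 and 4.98 CPM in A549 and 6.32 and 6.06 CPM in H1944 and did not pass (edgeR adjusted p 0.162), so counts of this family may be divided unevenly between copies. XAGE1A and XAGE1B had the same counts as each other and did not pass, and the counts of MAGEA2 and MAGEA2B, 0 in A549, were nearly equal. Of the 17 calls, 10 were left without H1944 WT 1 and 9 without H1944 WT 2.

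**Figure D4:**
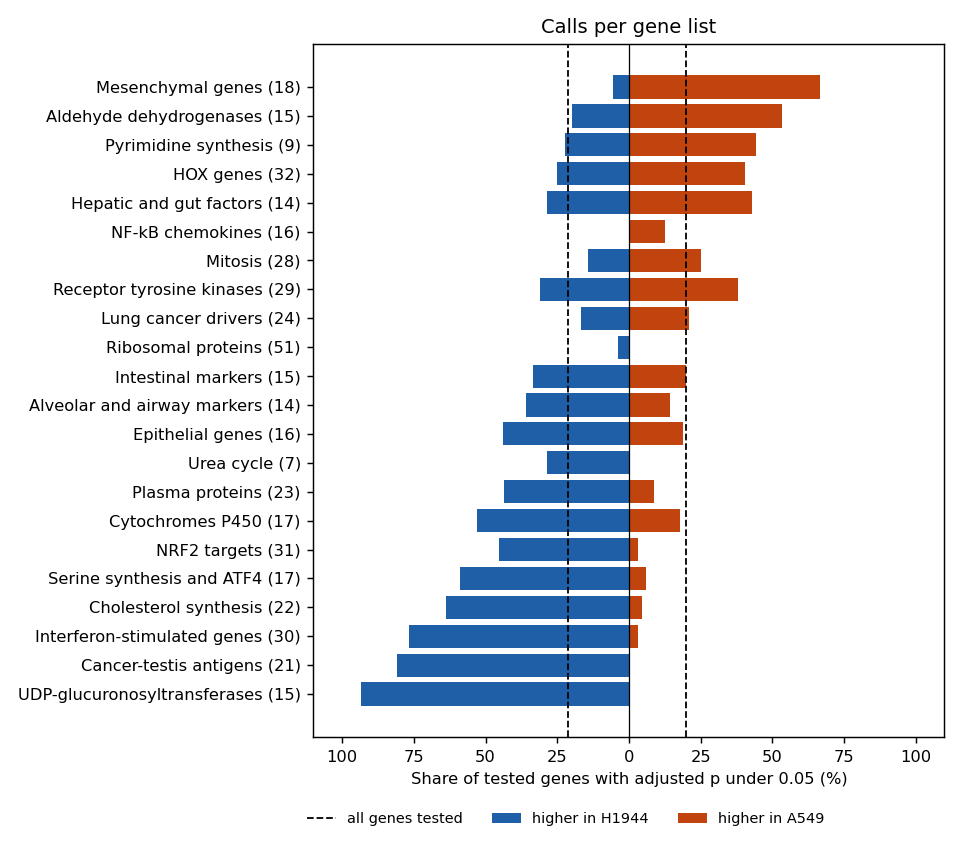
Share of the tested genes of each list with an adjusted p under 0.05, higher in H1944 to the left (blue) and in A549 to the right (red), with the number tested in brackets. Dashed lines give the share over all genes tested, 21.2% and 20%. Of the 22 lists drawn, glucuronidation, cancer-testis antigens and interferon-stimulated genes reach farthest towards H1944 and mesenchymal genes and aldehyde dehydrogenases farthest towards A549.

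Interferon-stimulated genes, the antiviral set that interferon switches on, were higher in H1944. Of 30 tested, 23 were called higher in H1944 and 1 in A549 (against 21.2% and 20% of all genes tested). Of these calls 20 and 1 held, and the list's median was -1.88. IFITM3, which blocks virus entry, measured 16.7, 16 and 14.8 CPM in A549 and 326 and 334 CPM in H1944 (log2 fold change -4.38 ± 0.14 SE, adjusted p 0.000455 by edgeR). BST2, which tethers budding virus, measured 0.192, 0.182 and 0.47 CPM in A549 and 81.7 and 84.6 CPM in H1944 (log2 fold change -8.18 ± 0.39 SE, adjusted p 0.00072 by edgeR), and IFI44L 0.144, 0.0911 and 0 CPM in A549 and 34.3 and 34.2 CPM in H1944 (409-fold). In A549 BST2 and IFI44L were below 0.5 CPM in each library.

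The RNA sensor IFIH1 measured 1.92, 1.46 and 1.18 CPM in A549 and 16.4 and 17.1 CPM in H1944 (11-fold) and MX1 1.44, 0.729 and 0.752 CPM in A549 and 11.2 and 9.66 CPM in H1944 (10.7-fold). IFI44 and IFITM2 were 58.4-fold and 2.44-fold higher in H1944, and ISG15 3.02-fold. OAS3, an antiviral nucleotide synthetase, measured 143, 89.2 and 93.6 CPM in A549 and 118 and 118 CPM in H1944 and did not pass (edgeR adjusted p 0.726), with WT 1 above H1944 and WT 2 and WT 3 below. HERC5, an ISG15 ligase, was the member higher in A549, at 4.5, 2.87 and 3.95 CPM in A549 and 0.433 and 0.793 CPM in H1944, a call lost without H1944 WT 1 (adjusted p 0.0678). The call of ISG15 rested on both H1944 libraries (adjusted p up to 0.099). Of the 23 calls for H1944, 9 were left without H1944 WT 1 and 8 without H1944 WT 2.

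Chemokines and other targets of NF-kB differed between the A549 libraries. CXCL8, which attracts neutrophils, measured 115, 3.01 and 1.79 CPM in A549 and 5.5 and 5.13 CPM in H1944, and CXCL1 154, 11.7 and 10.7 CPM in A549 and 36.1 and 34.3 CPM in H1944. CXCL5 measured 1034, 138 and 136 CPM in A549 and 179 and 185 CPM in H1944 and the adhesion molecule ICAM1 17.8, 0.592 and 1.13 CPM in A549 and 54.7 and 54.7 CPM in H1944. In each of these 4, WT 1 was at least 7 times as high as WT 2 or WT 3, and none passed (edgeR adjusted p 0.288, 0.67, 0.37 and 0.135). CXCL2 and CXCL3 split in the same way, at 72.4, 15.1 and 15.4 and 40.4, 5.2 and 5.69 CPM in A549, with all A549 libraries above H1944. NFKBIA, the inhibitor of NF-kB, measured 97.9, 59.4 and 56.5 CPM in A549 and 70.4 and 74.5 CPM in H1944. The monocyte attractant CCL2 at 83.4, 21.8 and 22 CPM in A549 and 2.64 and 2.24 CPM in H1944 and TNFAIP2 at 800.0, 454 and 458 CPM in A549 and 279 and 269 CPM in H1944 were the 2 of 16 called, both higher in A549 and both lost with either H1944 library left out (adjusted p up to 0.126 and 0.241), TNFAIP2 also without A549 WT 2 or WT 3. The 2 calls of 16 compare with 41.2% of all genes tested called either way. Without A549 WT 1, 5 were called higher in A549 and 10 in H1944 (against 6733 and 7118 of 16634 genes tested). The list's summed level was 2930.2, 709, 705, 740.0 and 730.0 CPM.

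**Figure D5:**
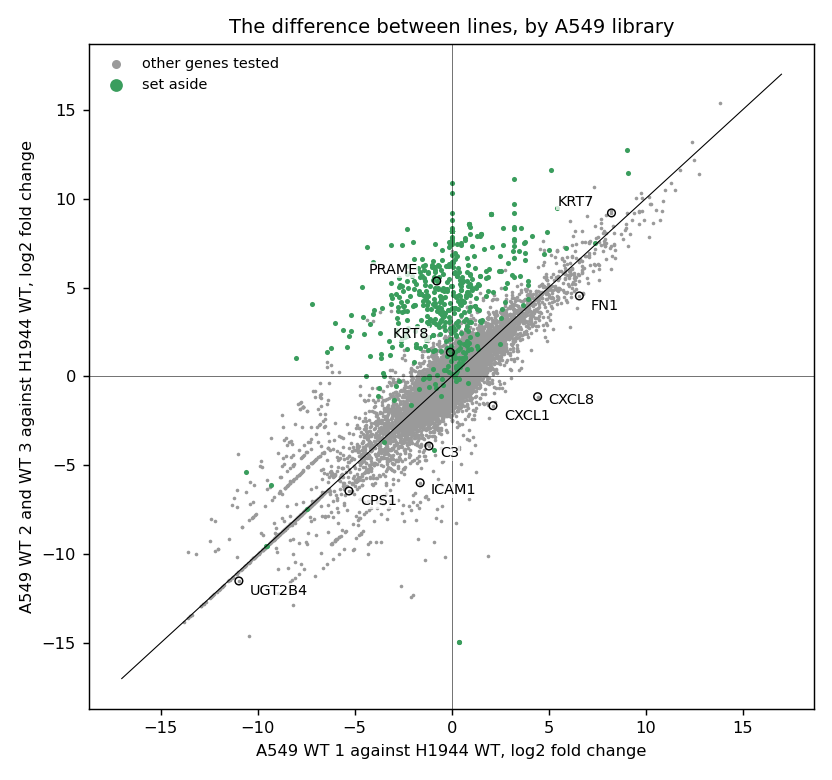
Log2 fold change of each gene tested for A549 WT 1 against H1944 (x axis) and for A549 WT 2 and WT 3 against H1944 (y axis), with the line of equality. Green points are the genes set aside, a choice that used the ratio of WT 2 and WT 3 to WT 1, with PRAME at -0.76 and 5.37. CXCL8, CXCL1, ICAM1 and C3 lie below the line. CPS1, UGT2B4 and KRT7 lie near the line.

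Cholesterol synthesis was higher in H1944 along the pathway. The genes are switched on together by SREBF2 when sterols are low. Of 22 tested, 14 were called higher in H1944 and 1 in A549 (against 21.2% and 20% of all genes tested). Of these calls 13 and 1 held, and the list's median was -1.75. HMGCS1, an early step, measured 84.3, 83.8 and 76.4 CPM in A549 and 525 and 557 CPM in H1944 (log2 fold change -2.73 ± 0.14 SE, adjusted p 0.00072 by edgeR). MSMO1, a late demethylase, measured 25, 25.2 and 25.6 CPM in A549 and 262 and 267 CPM in H1944 (log2 fold change -3.39 ± 0.13 SE, adjusted p 0.000455 by edgeR). Steps between these went the same way: IDI1 was 5.31-fold higher in H1944, FDPS 2.52-fold, FDFT1 3.96-fold and SQLE 5.38-fold. The call of FDPS rested on each library but A549 WT 1 (adjusted p without an H1944 library up to 0.16).

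The sterol sensor partner INSIG1 measured 14.5, 22.5 and 22 CPM in A549 and 158 and 167 CPM in H1944 (8.26-fold) and SREBF2 itself 65.5, 83.7 and 82.6 CPM in A549 and 277 and 263 CPM in H1944 (log2 fold change -1.80 ± 0.16 SE, adjusted p 0.00206 by edgeR). LSS, EBP and NSDHL did not pass, and for each of them WT 1 was below H1944 and WT 2 and WT 3 above. Of the 14 calls for H1944, 11 were left without H1944 WT 1 and 11 without H1944 WT 2.

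ATF4, the factor of the amino acid stress response, measured 222, 280.3 and 284 CPM in A549 and 774 and 758 CPM in H1944, 2.92-fold higher in H1944 (log2 fold change -1.55 ± 0.17 SE, adjusted p 0.00325 by edgeR). Of 17 genes of its programme tested, 10 were called higher in H1944 and 1 in A549 (against 21.2% and 20% of all genes tested). Of these calls 4 held, against 24.9% of all genes tested. Asparagine synthetase (ASNS) measured 57.3, 53.7 and 50.8 CPM in A549 and 119 and 123 CPM in H1944 (2.24-fold), and PHGDH, the first step of serine synthesis, 41.3, 51.2 and 51.6 CPM in A549 and 99.5 and 92.2 CPM in H1944 (2-fold). PSPH, the last step, was the member higher in A549, by 1.72-fold, and PSAT1 between these steps measured 166, 132 and 128 CPM in A549 and 138 and 143 CPM in H1944 (edgeR adjusted p 0.944). STC2, a secreted stress glycoprotein, was 2.94-fold higher in H1944 and MTHFD2, of mitochondrial folate metabolism, 1.83-fold, while SHMT2 measured 151, 245 and 249.5 CPM in A549 and 199 and 193 CPM in H1944 and did not pass (edgeR adjusted p 0.701). With either H1944 library left out 1 call for H1944 was left. Those of ASNS, PHGDH, STC2, MTHFD2 and PSPH were lost (adjusted p up to 0.0554, 0.0949, 0.0612, 0.096 and 0.189), that of PSPH also without A549 WT 2 or WT 3.

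Of 15 amino acid transporters tested, 2 were called (against 41.2% of all genes tested), both higher in H1944. Without A549 WT 1, 12 were called higher in H1944 and 0 in A549 (against 7118 and 6733 of 16634 genes tested). SLC7A7, which exports arginine and other cationic amino acids, measured 12.8, 12.8 and 12.3 CPM in A549 and 165 and 171 CPM in H1944, 13.3-fold higher (log2 fold change -3.73 ± 0.13 SE, adjusted p 0.000455 by edgeR). SLC38A5 was at most 1.07 CPM in any library, and its call rested on each library but A549 WT 1. The leucine carrier SLC7A5 and its partner SLC3A2 did not pass (edgeR adjusted p 0.158 and 0.405), nor did the glutamine carrier SLC1A5 (0.059) or the arginine carrier SLC7A1 (0.102). SLC7A11, the cystine carrier, measured 362, 133 and 136 CPM in A549 and 585 and 607 CPM in H1944 and did not pass (edgeR adjusted p 0.0644), with WT 1 nearer to H1944 than WT 2 and WT 3.

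Genes of the lung adenocarcinoma driver list were called about as often as all genes tested. Of 24 tested, 5 were called higher in A549 and 4 in H1944 (against 20% and 21.2% of all genes tested), and without A549 WT 1 these were 10 and 12. STK11, a kinase that activates AMPK, measured 49.1, 77.1 and 79.9 CPM in A549 and 41.5 and 37.5 CPM in H1944 and did not pass (edgeR adjusted p 0.0601), with every A549 library above H1944. The splicing regulator RBM10 measured 69.2, 103 and 105 CPM in A549 and 11.1 and 10.6 CPM in H1944 (log2 fold change 3.09 ± 0.26 SE, adjusted p 0.00177 by edgeR) and SMARCA4, the ATPase of the SWI/SNF remodelling complex, 21.4, 21.4 and 18.3 CPM in A549 and 3.08 and 3.03 CPM in H1944 (log2 fold change 2.73 ± 0.18 SE, adjusted p 0.000999 by edgeR); its relative SMARCA2 measured 40.5, 31.2 and 32.9 CPM in A549 and 34 and 34.9 CPM in H1944. Cyclin D1 (CCND1) measured 452, 477 and 484 CPM in A549 and 131 and 129.6 CPM in H1944, 3.62-fold higher in A549. EGFR was also called higher in A549.

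Higher in H1944 were NFE2L2, the receptor ERBB3, MDM2 and CTNNB1. ERBB3 measured 9.53, 7.02 and 6.86 CPM in A549 and 146 and 146 CPM in H1944 (log2 fold change -4.23 ± 0.20 SE, adjusted p 0.00072 by edgeR). MDM2, a ubiquitin ligase, measured 130.1, 92.4 and 92.6 CPM in A549 and 260.0 and 265 CPM in H1944 (2.5-fold), and beta-catenin (CTNNB1) 196, 147 and 142 CPM in A549 and 269.8 and 275 CPM in H1944 (1.69-fold, not held). MYC measured 176, 184 and 181 CPM in A549 and 176 and 175 CPM in H1944, with a log2 fold change of 0.04 and a 95% interval of -0.27 to 0.35. Among those that did not pass were ARID1A (-0.43), RB1 (-0.86), NF1 (0.58), BRAF (-0.61), ERBB2 (0.58), MET (0.30), PIK3CA (-0.81), CDK4 (0.32) and TERT (0.77), where the numbers are log2 fold changes. ALK, ROS1 and RET were too low to test. With H1944 WT 1 or WT 2 left out, 3 calls for A549 and 2 for H1944 were left, and those of EGFR, MDM2 and CTNNB1 were lost (adjusted p up to 0.135, 0.0753 and 0.178). CTNNB1 rested on A549 WT 2 and WT 3 too.

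Receptor kinases divided between the lines. Of 29 tested, 11 were called higher in A549 and 9 in H1944 (against 20% and 21.2% of all genes tested). A549 had more EGFR (159, 72.5 and 72.4 CPM in A549 and 24.4 and 24.1 CPM in H1944; log2 fold change 2.06 ± 0.44 SE, adjusted p 0.0193 by edgeR), FGFR1 (144, 120.2 and 125 CPM in A549 and 24.4 and 23.9 CPM in H1944; log2 fold change 2.43 ± 0.16 SE, adjusted p 0.00101 by edgeR) and EPHA2 (185, 223 and 221 CPM in A549 and 26.6 and 24.9 CPM in H1944; log2 fold change 3.03 ± 0.17 SE, adjusted p 0.000845 by edgeR). H1944 had more ERBB3, ERBB4 (0, 0 and 0.141 CPM in A549 and 11.7 and 13.2 CPM in H1944; 3 counts over A549, ratio of pooled counts 265, 95% counting interval 90.2 to 1288) and FGFR3 (29.5, 31.2 and 28.5 CPM in A549 and 90.7 and 84.6 CPM in H1944; 2.95-fold). So within the ERBB family EGFR was on the A549 side and ERBB3 and ERBB4 on the other, while ERBB2 did not pass. DDR1, a collagen receptor, measured 9.1, 144 and 147 CPM in A549 and 29.5 and 20.8 CPM in H1944 and did not pass (edgeR adjusted p 0.217), nor did IGF1R (0.0855). DDR1 lies in the MHC, which was set aside. EPHA3 had 0 counts in A549 and EPHA4 0 counts in H1944, at least 118-fold and 24.5-fold apart. Leaving out H1944 WT 1 left 4 and 5 calls for A549 and H1944, and leaving out H1944 WT 2 left 4 and 4. EGFR and EPHA4 rested on both H1944 libraries (adjusted p up to 0.135 and 0.0532) and EPHA3 on H1944 WT 2 (0.0501).

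Chromosome 9p21, a region often deleted in lung adenocarcinoma, holds the cell cycle inhibitors CDKN2A and CDKN2B. Both, and the antisense gene CDKN2B-AS1, had 0 counts in all 5 libraries. MTAP, the neighbouring methionine salvage gene, measured 10.1, 6.29 and 8.32 CPM in A549 and 34.8 and 34.4 CPM in H1944, 4.2-fold higher in H1944 (log2 fold change -2.07 ± 0.23 SE, adjusted p 0.00338 by edgeR). On the other side of the locus DMRTA1 had 0 counts in H1944 and 1.87, 0.684 and 1.22 CPM in A549, at least 18.5-fold higher. HACD4 measured 5.17, 2.6 and 2.07 CPM in A549 and 0.0866 and 0.14 CPM in H1944 and FOCAD 48.3, 35.1 and 35.9 CPM in A549 and 18.2 and 20.2 CPM in H1944, both higher in A549, and MLLT3 35.2, 26 and 25.3 CPM in A549 and 65.1 and 64.9 CPM in H1944, higher in H1944 but not held.

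KLHL9, IFNE, CAAP1, PLAA and IFT74 did not pass, with log2 fold changes of -0.46, 0.95, -0.60, 0.20 and 0.51. IFNB1 and ELAVL2 had 0 counts throughout and IFNA1 at most 3. With either H1944 library left out MTAP alone was still called; DMRTA1, HACD4, FOCAD and MLLT3 had adjusted p up to 0.0648, 0.0664, 0.136 and 0.0861.

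Some genes above 100 CPM differed little between the lines. MRPS27, a mitochondrial ribosomal protein, measured 124, 117 and 117 CPM in A549 and 121 and 116 CPM in H1944, with a 95% interval of the log2 fold change from -0.31 to 0.33. The actin regulator CORO1C (229, 248 and 233 CPM in A549 and 232 and 243 CPM in H1944), the prefoldin-like URI1 (136, 140.1 and 135 CPM in A549 and 136 and 143 CPM in H1944), the disulfide isomerase TXNDC5 (226, 213 and 212 CPM in A549 and 219.9 and 221 CPM in H1944) and the adducin ADD1 (118, 119.6 and 127 CPM in A549 and 123 and 116 CPM in H1944) had intervals between -0.35 and 0.35. These 5 had the narrowest intervals around no change among genes with at least 100 CPM in each library.

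Ribosomal protein genes gave few calls over all 5 libraries, against 41.2% of all genes tested, and an unstable direction. Of 51 tested, 2 were called higher in H1944, RPL7 at 721, 1471 and 1452 CPM in A549 and 2824 and 3123 CPM in H1944 and RPL30 at 309, 555 and 542 CPM in A549 and 1164 and 1237 CPM in H1944, and both calls were lost with either H1944 library left out (adjusted p up to 0.199 and 0.134), RPL7 also without A549 WT 2 or WT 3 and RPL30 without WT 3. Without A549 WT 1, 34 were called higher in A549 and 13 in H1944 (against 6733 and 7118 of 16634 genes tested). The median log2 fold change was 0.08 over all A549 libraries, -0.69 with WT 1 and 0.35 with WT 2 and WT 3. Mitotic genes gave 7 calls for A549 and 4 for H1944 of 28, near the 20% and 21.2% of all genes tested, and 1 each held: UBE2C, which loads ubiquitin for the anaphase-promoting complex, at 89.3, 146 and 144 CPM in A549 and 42.3 and 40.1 CPM in H1944, and the kinetochore gene NDC80 at 19.3, 21.2 and 22.4 CPM in A549 and 43.7 and 46.6 CPM in H1944. CDK1, the mitotic kinase, measured 162, 179.8 and 170.4 CPM in A549 and 177 and 183 CPM in H1944 (edgeR adjusted p 0.669). No mitotic gene was called with either H1944 library left out, with adjusted p up to 0.101 and 0.0679 for the named pair.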

How the data were processed

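Poly(A) RNA was sequenced in 10 libraries, of which the 5 wild-type ones were used. The authors deposited 1 table of raw read counts per gene for each line. Per the submitters' processing notes the tools were Trim Galore 0.5.0, HISAT2 2.1.0, featureCounts 1.6.4 and DESeq2, with the hg38 build; how reads of near-identical genes were assigned is not given in the sources used here.

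Counts were joined by symbol, genes kept by filterByExpr with a minimum of 10 counts, scaled by TMM and tested with edgeR 4.0.16 (robust quasi-likelihood, Benjamini-Hochberg adjustment) in R 4.3.3. Alternatives used limma 3.58.1 (voom), DESeq2 1.42.0, other scalings and filters, a replicate block and leaving out each library. The scripts were tested on simulated data. Between libraries, the coefficient of variation left after counting noise was 31.1% in the main fit and 3.80% with a term for A549 WT 2 and WT 3, which differ from WT 1. A floor of 3 counts was 0.130 to 0.144 CPM, and bounds and ratios of pooled counts use the TMM-scaled library sizes; their intervals cover counting error only.

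Set-aside regions spanned genes at most 500000 bases apart with at least 8 times the A549 WT 1 CPM in WT 2 and WT 3. These genes had at least 1 CPM there, genes lying between them were included, and the MHC was added. Positions came from RefSeq GRCh38.p14 for 27654 of 28281 symbols, promoters from the same build. Replicate numbers did not pair the lines. Named genes were the markers, the driver and 9p21 lists, the 12 largest held differences in each direction with at least 20 CPM, up to 5 members of each list with the smallest adjusted p, list members of at least 100 CPM (given in part for the longest lists), and the 5 genes above 100 CPM with the narrowest interval around no change. Others were named after their values were seen. The members and lists were chosen with earlier results of these data known. Some members of the lists enter the counts but are not reported by name here.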

Additional observations from a re-analysis of the deposited data

How the results depend on the processing

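The counts of calls depend on which libraries define the spread. With a term for A549 WT 2 and WT 3, 6020 genes were higher in A549 and 6287 in H1944, and with A549 WT 1 alone against H1944 these were 5986 and 6420. Leaving out 1 library at a time gave 609 to 6733 genes higher in A549 and 918 to 7118 in H1944, 609 to 3482 and 918 to 3755 at 2-fold, and 609 to 1820 and 918 to 2362 held. For the held counts the library was left out of the main fit only, and the fit with the term kept all 5 libraries. The lowest counts came without H1944 WT 1 or WT 2, where 1 H1944 library is assumed to vary as A549 does, and the highest without A549 WT 1. The replicate numbers of the labels did not pair the lines (correlation of same-numbered deviations -0.0316 and -0.0243); the replicate block gave 2641 and 2861 calls and lost 13 named ones. A change of direction of a named gene that also passed the threshold came in the fits that separate A549 WT 1 from WT 2 and WT 3: of 267 genes, 14 with the term and 13 with A549 WT 1 alone, and 10 without A549 WT 1, none of which had passed with all 5 libraries. With A549 WT 1 the log2 fold changes turned to KEAP1 -0.45, KRT18 -0.19 and -0.20, PRAME -0.76, TUBB -0.25, CYP24A1 0.63, AKR1C3 -0.18, MUC5B 0.11, OAS3 0.28, NFKBIA 0.44 and 0.43, LSS -1.42, EBP -0.38, SHMT2 -0.38, CDK4 -0.30 and DDR1 -1.47 (where 2 values are given, with the term and alone). Log2 fold changes ran over the libraries left out from APEX1 -0.21 to 0.10, TALDO1 -0.28 to 0.081, ZEB1 -0.47 to 0.20, CEACAM6 -0.39 to 0.39, CXCL8 -1.14 to 3.48, CXCL1 -1.65 to 1.24, CXCL5 -0.41 to 1.69, PSAT1 -0.11 to 0.093, NF1 -0.14 to 0.85 and MET -0.15 to 0.50, the lowest or the highest without A549 WT 1. Of the named genes, 67 lost their call without H1944 WT 1 and 70 without H1944 WT 2, against 18 and 20 without A549 WT 2 or WT 3. DESeq2, limma-voom, other scalings, no filter and removing ribosomal RNA first reversed no named gene past the threshold and moved no total count of calls by over 1.5 times. Some verdicts did change. With DESeq2 17 named genes gained a call, among them PRAME (4.80, DESeq2 adjusted p 0.00812) and TUBB (4.76, DESeq2 adjusted p 0.00509). Upper-quartile scaling gained 3 and lost 2, limma-voom gained 2 and lost 1, and no filter lost 3. Without passing, 0 to 9 named genes turned sign under each alternative, 7 with upper-quartile scaling, among them AKR1C3 and PSAT1, and 2 with limma-voom, where CXCL1 turned to -0.39 and the median of the NF-kB list from 0.36 to -0.23. The share of calls higher in A549 was 48.6%, and 39.9% to 51.2% over the alternatives. List medians moved by at least their spread between A549 libraries in 21 of 31 lists with the term, and in 9 without A549 WT 1. Some turned sign. With the term the squamous median turned from 0.68 to -2.23 and that of ribosomal proteins from 0.08 to -0.69. Without A549 WT 1 the NF-kB median turned from 0.36 to -1.14. At this depth genes below about 0.144 CPM in a library cannot be told from absent. The cause of these changes was not tested.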

Other observations

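HOX genes, which set position along the body axis, differed by cluster member. Of 32 tested, 13 were called higher in A549 and 8 in H1944 (against 20% and 21.2% of all genes tested). HOXB9 measured 15.1, 13.4 and 14.1 CPM in A549 and 1.39 and 1.49 CPM in H1944 (log2 fold change 3.30 ± 0.19 SE, adjusted p 0.000862 by edgeR), HOXB8 was 4.75-fold higher in A549, and HOXB13, the most posterior gene of its cluster, measured 10.2, 15.8 and 14.8 CPM in A549 and 0.13 and 0.14 CPM in H1944 (96.7-fold, edgeR adjusted p 0.000862). HOXC10 went the other way at 1.72, 2.73 and 3.34 CPM in A549 and 53 and 54 CPM in H1944 (log2 fold change -4.36 ± 0.30 SE, adjusted p 0.00116 by edgeR), as did HOXA11 by 7.57-fold. Leaving out H1944 WT 1 left 3 and 3 calls for A549 and H1944, and leaving out H1944 WT 2 left 4 and 2.

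Imprinted genes, of which normally 1 parental copy is active, gave 5 calls for A549 and 4 for H1944 of 14 tested (against 20% and 21.2% of all genes tested). NDN measured 0.0479, 0.182 and 0.282 CPM in A549 and 22.8 and 23.3 CPM in H1944 (log2 fold change -7.02 ± 0.48 SE, adjusted p 0.00113 by edgeR). The long non-coding RNA MEG3 had 0 counts in H1944 and 10.7, 3.37 and 3.76 CPM in A549, at least 87.3-fold higher against 3 counts over the group, and its call was lost with either H1944 library left out (adjusted p up to 0.0574); 0 and 1 calls were left in the list.

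Neuroendocrine and squamous markers gave calls both ways. The neuronal enolase ENO2 measured 44.3, 58.4 and 64.3 CPM in A549 and 6.45 and 7.42 CPM in H1944 (8.02-fold, edgeR adjusted p 0.00157) and the granin CHGB was 7.7-fold higher in A549, while DDC, which makes dopamine and serotonin, measured 4.02, 10.1 and 10.5 CPM in A549 and 59.1 and 59.4 CPM in H1944 (log2 fold change -2.85 ± 0.43 SE, adjusted p 0.00754 by edgeR). Among squamous markers the desmosomal cadherin DSC3 measured 5.03, 3.46 and 4 CPM in A549 and 0.13 and 0 CPM in H1944 (57.3-fold) and TRIM29 0.958, 4.42 and 3.71 CPM in A549 and 46.8 and 45.2 CPM in H1944 (15.1-fold). TP63, the squamous master regulator, stayed at or under 4.69 CPM in every library. The calls of DDC, TRIM29 and TP63 were lost with H1944 WT 1 or WT 2 left out (adjusted p up to 0.0607, 0.0607 and 0.109).

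The lines also differed by chromosome, with set-aside genes left out. On chromosome 17, 460 of 946 genes tested were called higher in A549 and 59 in H1944 (against 20% and 21.2% of all genes tested), with a median log2 fold change of 0.80 (0.64 with A549 WT 1). On chromosome 4, 44 of 616 were called higher in A549 and 246 in H1944, with a median of -0.71 (-0.47 with A549 WT 1). Medians of chromosomes 13, 18, 8 and 6 were -0.59, -0.57, -0.55 and -0.51. Chromosome 9 as a whole had a median of 0.29.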
